A study of Mus musculus with 8 samples.

Results

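The Nkx2-1, Lhx6 and Lhx8 loci were examined in OTX2 chromatin immunoprecipitation sequencing (ChIP-seq) peak lists of the mouse subpallium. All peaks whose centre lay within 300 kb of a given gene position were taken, in mm9 coordinates: 57635000 on chromosome 12 for Nkx2-1, 35948000 on chromosome 2 for Lhx6 and 153980000 on chromosome 3 for Lhx8. This gave 49 peaks out of 26317 in the 8 lists, with 28 at Nkx2-1, 8 at Lhx6 and 13 at Lhx8. OTX2 libraries held 48 of the 49 peaks, input chromatin libraries held 0 and IgG libraries held 1. The positions are single points and no mm9 gene annotation was used here, so distances, given below or above the position for lower or higher coordinates, are not distances to a transcription start site and no peak is placed in an exon, intron or promoter.

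Tissue came from wild-type CD-1 embryos at embryonic stage E12.5 and was pooled over embryos. It comprised the septum, the medial ganglionic eminence (MGE) and the lateral one (LGE), so a peak cannot be assigned to MGE cells or to septal cells. The 3 OTX2 libraries used an antibody against OTX2, the 2 IgG libraries used normal goat IgG, and the 3 input libraries used no antibody. All 8 libraries share genotype, strain, stage and tissue, and the third experiment had no IgG library. Whether the 3 experiments drew on different litters is not in the labels, and p-values cover only the spread between these libraries, which may be technical.

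The MGE is a ventral forebrain swelling that produces cortical interneurons and neurons of the basal forebrain. Nkx2-1 encodes a homeodomain transcription factor that sets MGE identity, and mouse embryos without it lose Lhx6 and Lhx8 expression there. Lhx6 encodes a LIM-homeodomain factor of postmitotic MGE cells that is needed for the migration and subtype identity of parvalbumin and somatostatin interneurons. Lhx8 encodes a related LIM-homeodomain factor that is needed for forebrain cholinergic neurons. OTX2 is a bicoid-class homeodomain factor of the forebrain and midbrain, and this class prefers the letters TAATCC.

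All 3 genes had entries in RefSeq promoter sequences of another build, GRCm38.p6, and there all 3 lie on the minus strand, so that lower coordinates run downstream of them. The 250 bases before a start site are shown for each gene to give the sequence at the start of the genes that the loci are named for. The peaks are in mm9 and were not placed on these sequences. Capitals mark TAAT or its reverse complement ATTA, the core letters of many homeodomain sites. Of the 3 Lhx6 start sites in the table, the one shown is the only one with such letters. The windows are chr12:56536909-56537158 for Nkx2-1, chr2:36104061-36104310 for Lhx6 and chr3:154330561-154330810 for Lhx8, each printed 5′ to 3′ on the minus strand.
Nkx2-1: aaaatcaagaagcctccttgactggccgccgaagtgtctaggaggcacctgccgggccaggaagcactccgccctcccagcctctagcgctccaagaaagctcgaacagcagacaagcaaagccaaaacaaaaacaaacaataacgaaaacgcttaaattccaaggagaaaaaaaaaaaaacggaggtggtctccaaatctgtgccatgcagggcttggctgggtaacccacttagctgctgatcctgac
Lhx6: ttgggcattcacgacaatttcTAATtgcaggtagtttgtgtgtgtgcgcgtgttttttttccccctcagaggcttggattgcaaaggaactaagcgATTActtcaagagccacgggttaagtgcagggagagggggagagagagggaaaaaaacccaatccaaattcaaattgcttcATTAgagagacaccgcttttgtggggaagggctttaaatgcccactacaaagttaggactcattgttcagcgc
Lhx8: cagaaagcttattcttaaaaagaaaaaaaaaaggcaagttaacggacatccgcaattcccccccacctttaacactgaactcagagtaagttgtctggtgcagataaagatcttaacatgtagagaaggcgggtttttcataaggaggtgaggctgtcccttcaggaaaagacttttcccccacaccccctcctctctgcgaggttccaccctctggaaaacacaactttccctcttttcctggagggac
TAATCC, searched on both strands, was found in 0 of these windows and in 0 of the other Lhx6 windows, and it occurs in 6.25% of the 32851 promoter windows of the same length in the table. TAAT on either strand, which also counts every TAATCC, occurs 3 times in the Lhx6 window and in 54.9% of all windows. The Nkx2-1 and Lhx8 windows hold 0 matches. A window without a match says only that these letters are not in it.

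OTX2 peaks were found at all 3 loci, and their number differed strongly between libraries. At Nkx2-1 the OTX2 lists held 4, 3 and 20 peaks in replicates 1, 2 and 3, against 0 in each of the 3 input lists and 1 and 0 in the IgG lists of replicates 1 and 2. At Lhx8 the OTX2 lists held 2, 0 and 11 peaks, against 0 in every input and IgG list. At Lhx6 they held 0, 0 and 8 peaks, against 0 in every input and IgG list. OTX2 and input libraries did not overlap at Nkx2-1, as in 14.5% of the 600 kb bins of the genome, whereas at Lhx6 only the third OTX2 library stood above the controls. The whole OTX2 lists held 1848, 1298 and 22325 peaks, the input lists 138, 142 and 235, and the IgG lists 149 and 182, so a control list had few peaks to place anywhere. Read depth is unknown, and the track names of both third-experiment lists carry a tag absent from the other 6, so their peaks may have been called with other settings. The lists give each peak only a rank, the authors' order within that list with 1 as the best, without naming the quantity behind it.

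**Figure D1:**
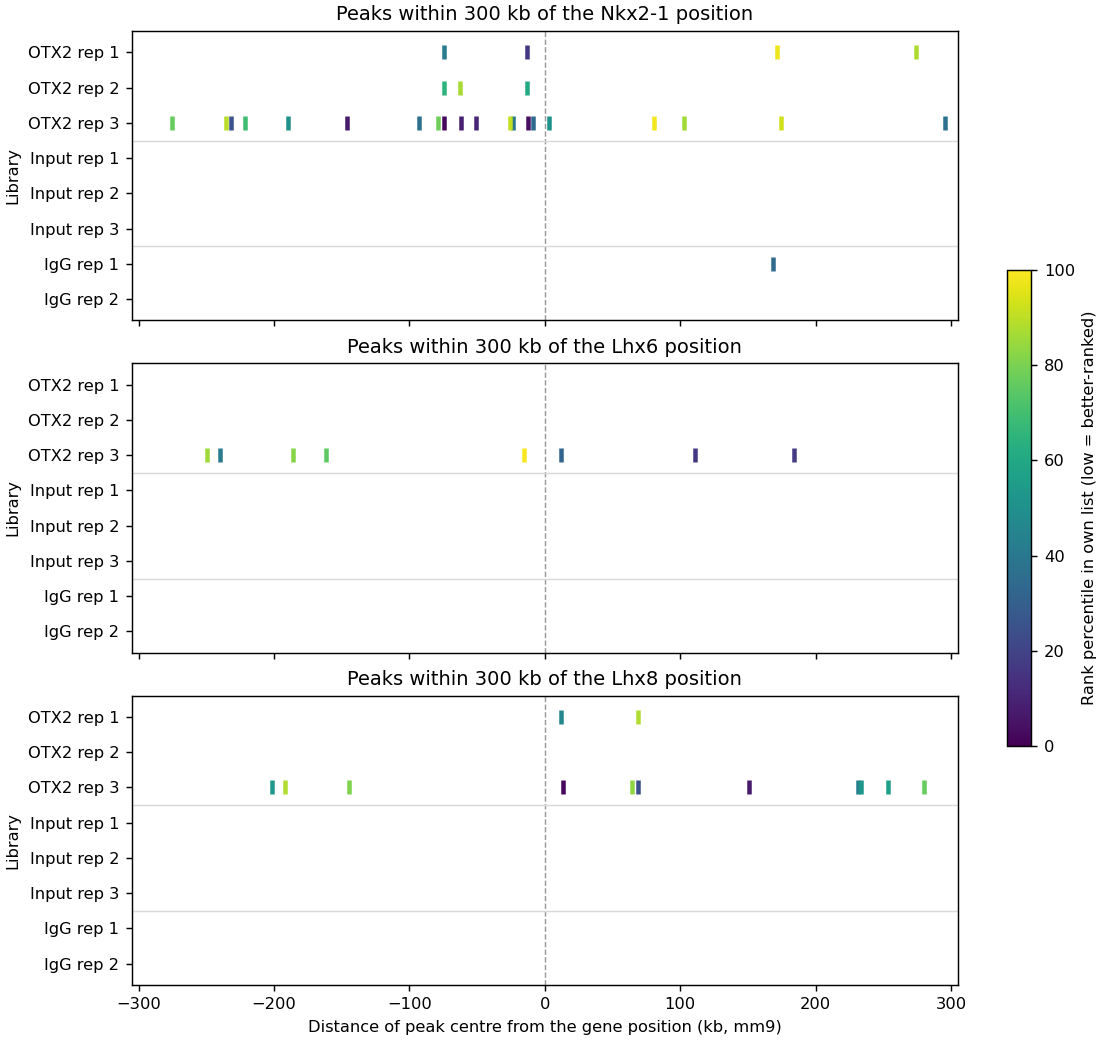
Positions of all 49 peaks, with the distance of the peak centre from the gene position in kb on the horizontal axis, 1 row per library and 1 panel per locus, coloured by rank percentile in the library's own list. At Nkx2-1 the 3 OTX2 rows line up near -75 and -13 kb, at Lhx8 the rows of replicates 1 and 3 line up near 13 and 69 kb, and at Lhx6 all 8 peaks are in replicate 3.

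On the log2(peaks + 1) scale, OTX2 libraries exceeded input libraries by 3.38 over the 3 loci together (p = 0.10 by an exact permutation test, two-sided, which cannot go lower with 3 libraries a group). Single loci gave differences of 2.90 at Nkx2-1 (exact p = 0.10, Benjamini-Hochberg adjusted p = 0.30), 1.72 at Lhx8 (exact p = 0.40, adjusted p = 0.60) and 1.06 at Lhx6 (exact p = 1.00, adjusted p = 1.00). With replicates 1 and 2 alone, which share their track naming, the differences were 2.16 at Nkx2-1, 0.79 at Lhx8 and 0 at Lhx6. With the better-ranked 50% of each list, replicate 2 held 0 peaks at the loci, so the OTX2 and input libraries then overlapped at Nkx2-1 (difference 1.68, exact p = 0.40, adjusted p = 0.60). These numbers are not adjusted for the length of the lists. As a share of its list, the 3 loci held 0.325, 0.231 and 0.175% of the OTX2 peaks in replicates 1, 2 and 3, against 0% in each input list and 0.671 and 0% in the IgG lists of replicates 1 and 2. The share in IgG replicate 1, from 1 peak, was above those of all 3 OTX2 lists.

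Set against the rest of the genome, the Nkx2-1 window was dense in replicate 3 peaks. Bins of 600 kb, the length of a window, held a median of 4 replicate 3 peaks (interquartile range 1 to 8, 4379 bins). The 20 peaks at Nkx2-1 were matched or exceeded in 1.37% of bins, the 11 at Lhx8 in 12.6% and the 8 at Lhx6 in 26.3%. Bins lie at fixed steps and 748 of them held 0 such peaks, while the windows are centred on genes, so these shares are a description and not a test.

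**Figure D2:**
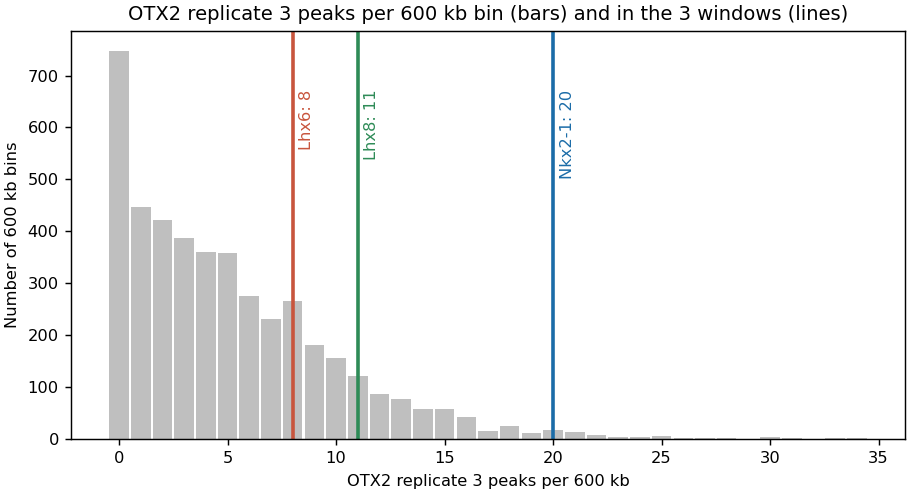
Number of 600 kb bins of the genome (vertical axis) by their number of OTX2 replicate 3 peaks (horizontal axis), with lines at the counts of the Lhx6, Lhx8 and Nkx2-1 windows. Lhx6 (8 peaks) lies at the upper end of the interquartile range, Lhx8 (11 peaks) lies above that range, and Nkx2-1 (20 peaks) lies in the upper tail.

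Peaks shared between experiments were found at Nkx2-1 and Lhx8. Merging overlapping OTX2 peaks (at least 1 bp) gave 41 regions, of which 5 held peaks of at least 2 libraries, with 3 at Nkx2-1, 2 at Lhx8 and 0 at Lhx6. None of the 5 overlapped an input or IgG peak. In the genome, 28.5% of 600 kb bins held at least 1 such region free of control peaks, 9.59% held at least 2 and 3.7% held at least 3. The farthest of the 5 lay 74.7 kb from its gene position, and 23 of the 39 replicate 3 peaks lay beyond 100 kb. Of the 5, 4 were in the best-ranked 10% of replicate 3, where 64.6% of the list was overlapped. Distance was not separated from rank. Both regions found in all 3 libraries were at Nkx2-1, and without replicate 3 those were the 2 regions left. The share of 600 kb bins holding a region of all 3 libraries was not computed, so this count is a description. Without replicate 1 Lhx8 had 0 shared regions.

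At Nkx2-1 the shared region nearest the gene position spanned 57620935 to 57623740 on chromosome 12, with its centre 12.7 kb below the position. Its peaks were ranked 294 of 1848 in replicate 1, 785 of 1298 in replicate 2 and 883 of 22325 in replicate 3. This was the best-ranked peak of the 3 loci in replicates 1 and 2 and the third in replicate 3. The peaks of replicates 1 and 2 were 233 and 146 bp wide, shared 133 bp and had centres 56 bp apart. The replicate 3 peak was 2806 bp wide and held both near its lower edge, with their centres at 20.7% and 22.7% of its length.

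A second Nkx2-1 region spanned 57559202 to 57561404, 74.7 kb below the position, and was ranked 762, 839 and 508 in replicates 1, 2 and 3. Its replicate 1 peak was 925 bp wide, at or above 98.7% of that list in width, and its replicate 2 peak of 218 bp lay inside it. Here the narrow peaks sat near the middle of the 2203 bp replicate 3 peak, at 46.3% and 43.9% of its length. The remaining shared region, from 57571684 to 57574663 and 61.8 kb below the position, was found in replicates 2 and 3 and ranked 1127 and 2003. Replicate 1 listed no peak there.

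At Lhx8 the leading region spanned 153991606 to 153994836 on chromosome 3, 13.2 kb above the position. It was ranked 473 in replicate 3, the best rank of any of that library's 39 peaks at the 3 loci, and 853 in replicate 1. Its replicate 3 peak was 3231 bp wide, the widest of the 39 and at or above 99.1% of that list. The replicate 1 peak was 192 bp wide and lay at 11.3% of its length, 1250 bp from its centre. The second Lhx8 region, from 154048503 to 154049737 and 69.1 kb above the position, was ranked 1626 in replicate 1 and 5351 in replicate 3, with centres 12 bp apart. Replicate 2, the shortest OTX2 list, held 0 peaks at Lhx8.

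The remaining 36 OTX2 regions were seen in 1 library, 34 of them in replicate 3 and 2 in replicate 1. At Nkx2-1 the best-ranked of these by rank percentile were in replicate 3, from 57487626 to 57489722 (rank 1540, 2097 bp), from 57582933 to 57584598 (rank 2348, 1666 bp) and from 57402572 to 57403491 (rank 5604, 920 bp). They lay 146.3, 51.2 and 232.0 kb below the position. At Lhx8 the best-ranked lay above the position in replicate 3, from 154130471 to 154131678 (151.1 kb away, rank 1500), from 154210446 to 154211816 (231.1 kb, rank 9603) and from 154213105 to 154214525 (233.8 kb, rank 11940).

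At Lhx6 all 8 peaks were in this class, so the locus had no peak seen in more than 1 experiment. The exact Clopper-Pearson 95% interval for 0 of 8 was 0 to 36.9%. It covers counting error only and includes the 8.83% of the whole replicate 3 list that replicate 1 or 2 overlapped. All 8 peaks ranked after the best 10 percent of that list, where the share overlapped was 2.64%. Of all 600 kb bins, whatever their number of replicate 3 peaks, 28.5% held a shared region free of control peaks. Bins as dense as the Lhx6 window were not taken separately. The 0 of 8 is therefore a description, and whether it sets Lhx6 apart was not tested. The best-ranked Lhx6 peaks spanned 36058547 to 36059322 and 36131735 to 36132543 on chromosome 2. They lay 110.9 and 184.1 kb above the position and were ranked 3642 and 3856 of 22325. The peak nearest the Lhx6 position, from 35959264 to 35960151 and 11.7 kb above it, was ranked 7226. The only other peak within 100 kb, 15.1 kb below the position, was ranked 22127.

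Of the 39 replicate 3 peaks at the 3 loci, 5 were overlapped by a replicate 1 or 2 peak (12.8%, exact Clopper-Pearson 95% interval 4.3 to 27.4%), against 8.83% over the whole replicate 3 list. Of the 6 peaks in the best-ranked 10% of that list, 4 were overlapped, against 64.6% over the list, and of the other 33 peaks 1 was overlapped, against 2.64%. The interval at the loci includes the share of the whole list. In the other direction, replicate 3 overlapped 4 of 6 replicate 1 peaks, against 87.9% over the replicate 1 list, and 3 of 3 replicate 2 peaks, against 92.1%. Replicate 2 overlapped 2 of the 6 replicate 1 peaks, against 43% over the list, and replicate 1 overlapped 2 of the 3 replicate 2 peaks, against 61.6%. These intervals cover counting error only.

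**Figure D3:**
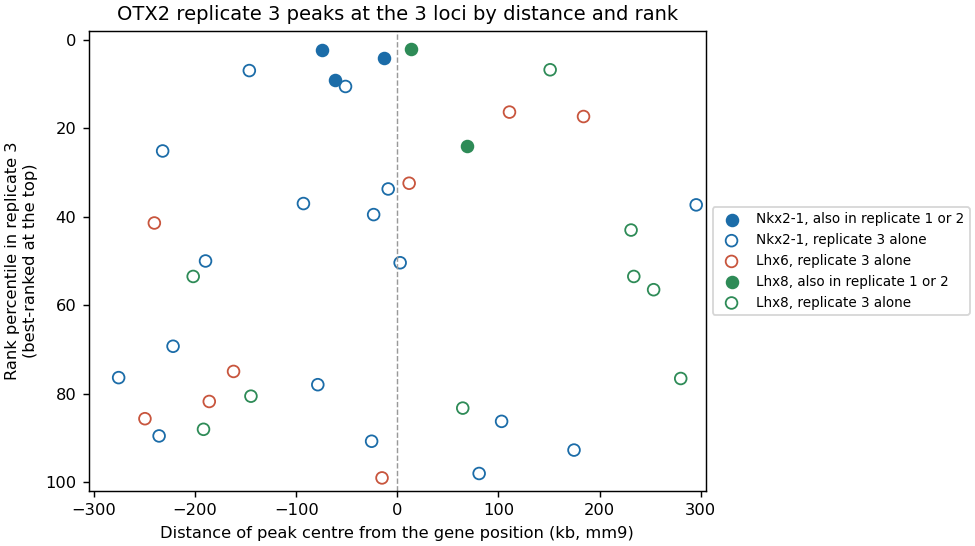
The 39 OTX2 replicate 3 peaks, with distance from the gene position in kb on the horizontal axis and rank percentile in the list on the vertical axis (best at the top), coloured by locus, with filled points for peaks also in replicate 1 or 2. The 5 filled points lie within 74.7 kb of the position, 4 of them in the best-ranked 10%. Open points lie 2.8 to 295.5 kb from the position, at rank percentiles from 6.72 to 99.1.

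The numbers of peaks below and above each gene position were described, and whether they differ from an even split was not tested. In replicate 3, 15 of the 20 Nkx2-1 peaks lay below the gene position and 5 above it. A run of 9 peaks filled the stretch from 92.8 to 9.0 kb below the position and held all 3 shared regions, with ranks between 508 and 20276. The 5 peaks above the position were ranked between 8327 and 21891. The peak closest to the Nkx2-1 position, 2.8 kb above it, was seen in replicate 3 alone and ranked 11259. Around Lhx8 the sides were reversed, with 8 of 11 peaks above the position and 3 below it, and a stretch of 156.0 kb without a peak separated the region 13.2 kb above the position from the next peak below. At Lhx6, 3 peaks lay above and 5 below, and the longest stretch without a peak was 146.1 kb, from 161.9 to 15.1 kb below the position.

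In GRCm38, Nkx2-1 lies between the protein-coding genes Mbip on its lower side and Nkx2-9 and then Pax9 on its higher side. Nkx2-9 encodes another NK2 homeodomain factor and Pax9 a paired-box factor. Lhx6 lies between Morn5 and Rbm18, and Lhx8 lies between Slc44a5 and Tyw3. These are neighbours in that build, and no peak was assigned to any of them.

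Replicate 3 peaks at the 3 loci were ranked from 473 to 22127 and replicate 1 peaks from 294 to 1804, while the 3 replicate 2 peaks, ranked 785, 839 and 1127, all lay in the worse-ranked part of that list. The median rank percentile, where 0 is best, was 66.9 for the 6 peaks of replicate 1, 64.6 for the 3 of replicate 2 and 50.4 for the 39 of replicate 3, against 50 over each whole list by construction. Within 100 kb of the positions it was 43.7 in replicate 1, 64.6 in replicate 2 and 35.3 in replicate 3. Within 500 kb it was 66.9, 64.6 and 55.0 in replicates 1, 2 and 3. In replicates 1 and 3 the side of 50 therefore depended on the width of the window. For replicate 3 within 300 kb, the median was 44.8 at Nkx2-1, 53.5 at Lhx8 and 58.2 at Lhx6. Each locus mixed well-ranked and poorly ranked peaks, and 4 of the Nkx2-1 peaks, 2 of the Lhx8 peaks and 0 of the Lhx6 peaks were in the best-ranked 10% of that list.

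Replicate 3 peaks at Nkx2-1 and Lhx8 were often wide for their rank. Compared with peaks of the same decile of the rank order, 10 of 20 at Nkx2-1, 5 of 11 at Lhx8 and 0 of 8 at Lhx6 were wider than the 75th percentile of that decile, which 24.9% of the whole list exceeds. The Lhx8 peak of 1235 bp passed its limit of 1232 bp only narrowly. Widths at Lhx6 ran from 526 to 888 bp. Narrower than the 25th percentile of their decile were 3 of 20 at Nkx2-1, 2 of 11 at Lhx8 and 3 of 8 at Lhx6. The share of the whole list below that percentile was 24.9%. The 5 replicate 3 peaks overlapped by another library were 1235 to 3231 bp wide (median 2806 bp), and the 34 others 473 to 2112 bp (median 792 bp). A wide peak is more easily overlapped, and with each peak reduced to 200 bp around its centre 5.13% of the 39 peaks remained overlapped, against 6.39% of the whole list under the same reduction.

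**Figure D4:**
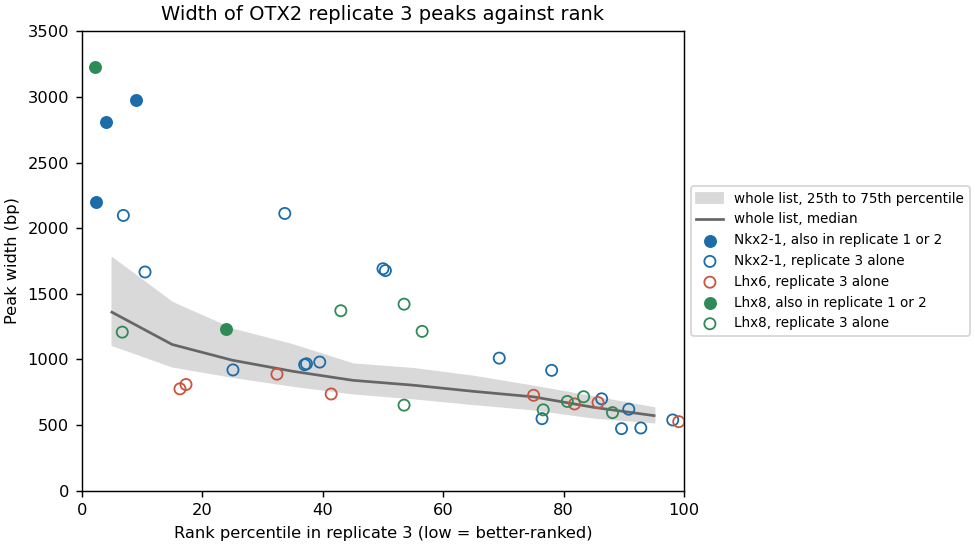
Width in bp (vertical axis) of the 39 OTX2 replicate 3 peaks against their rank percentile (horizontal axis), coloured by locus, with filled points for peaks also in replicate 1 or 2, over the median and interquartile range of the whole list by decile of the rank order. By the decile of each peak, 10 of the Nkx2-1 points and 0 of the Lhx6 points exceed the 75th percentile of width. The grey band is drawn between decile midpoints, so points at either end of the axis lie beside it.

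Control signal at the loci amounted to 1 peak. IgG replicate 1 listed a peak of 154 bp from 57803078 to 57803231 on chromosome 12, 168.2 kb above the Nkx2-1 position, at rank 52 of 149. It overlapped no OTX2 peak. The closest was the replicate 1 peak from 57806089 to 57806213, 2.86 kb away and ranked 1804 of 1848, which no other OTX2 list held. The other peak found in replicate 1 alone, from 57909493 to 57909597, was ranked 1618. Of the 48 OTX2 peaks at the loci 0 overlapped a control peak, against 0.675% over the 3 lists.

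At the 300 kb limit, the outermost Nkx2-1 peak inside it lay 295.5 kb above the position (replicate 3, rank 8327) and the nearest outside lay 330.5 kb above it (rank 21587). For Lhx6 these were 249.5 kb below (rank 19122) and 389.7 kb below (rank 10462), and for Lhx8 280.2 kb above (rank 17092) and 330.0 kb above (rank 15973). All 6 were replicate 3 peaks.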

How the data were processed

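The deposited files were 1 peak list per library (3 OTX2, 3 input, 2 IgG), each with chromosome, start, end and a rank running from 1 to the length of the list. BWA, MACS 1.4 and the build mm9 are named in the submitters' processing notes, without parameters. Controls, thresholds and the ranked quantity were not given in the sources used here. Groups and replicate numbers came from the titles. Starts were written 1-based. Rank percentile is the rank divided by the number of peaks in the list. Overlaps (at least 1 bp) and regions were obtained in Python 3.11.15 using numpy 2.4.6, scipy 1.17.1 and pandas 2.3.3; 3 overlaps were repeated with bedtools 2.31.1 and gave the same counts, and the region code was tested on simulated data. Peak numbers per library were compared as log2(peaks + 1) with an exact permutation test of library labels. Named were all regions in at least 2 OTX2 libraries, the 3 best-ranked single-library regions per locus and every control peak; further peaks beside a stated count or position were chosen after their values were seen. The loci and lists were chosen with earlier results of these data known. Other MGE genes were not analysed here, since no mm9 annotation was used.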

Additional observations from a re-analysis of the deposited data

How the results depend on the processing

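The OTX2 excess over input kept its sign in every alternative run except at Lhx6 without replicate 3, where it was 0. It was smaller with the better-ranked 50% of each list (2.08 over the 3 loci together, exact p = 0.40; 1.68 at Nkx2-1, 0.77 at Lhx6 and 1.11 at Lhx8). Against all 5 controls it was 3.18 over the loci together (exact permutation test, p = 0.0357; adjusted p of 0.107 at Nkx2-1, 0.321 at Lhx8 and 0.75 at Lhx6). These controls held 0, 0, 0, 1 and 0 peaks there in far shorter lists, so the small p says nothing about OTX2 apart from list length. Leaving out a replicate gave 2.4 to 4.06 over the 3 loci together, 2.16 to 3.36 at Nkx2-1, 0 to 1.58 at Lhx6 and 0.79 to 2.58 at Lhx8. Input lists held 0 peaks in every window, so whether replicate numbers pair the libraries could not be checked; with a replicate block the difference was again 3.38 over the loci together, 2.9 at Nkx2-1, 1.06 at Lhx6 and 1.72 at Lhx8, with an exact sign-flip p of 0.25 over the loci together, the smallest that 3 pairs allow.

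The number of shared regions, 5 over the 3 loci, was 5 with half-widths of 100 and 500 kb, with 50% overlap and with control peaks kept. It was 2 when all 3 libraries were required (0 at Lhx8) and 41 for any 1 library (22 at Nkx2-1, 8 at Lhx6 and 11 at Lhx8). With the better-ranked 50% of each list it was 3 (1 at Lhx8), and with lists of equal length, an alternative chosen after seeing the data, it was also 3 (1 at Lhx8). Leaving out a replicate gave 2 to 4 over the loci together, 2 to 3 at Nkx2-1, 0 at Lhx6 and 0 to 2 at Lhx8. The share of replicate 3 peaks that another library overlapped was 31.2% within 100 kb (5 of 16 peaks), 12.8% within 300 kb and 9.62% within 500 kb. Over the whole list it was 8.83%. With 200 bp around each peak centre the share at the loci was 5.13%, against 6.39% over the whole list. Without replicate 1 or 2 the share at the loci was 7.69% to 10.3%, for which no whole-list share was computed. The causes of these changes were not tested. Read depth is unknown, and a locus with 0 peaks in a list may lie below that list's threshold.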
